A study of Mus musculus with 6 samples.

Results

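Antisense events were examined in RNA sequencing data of the NAc, the nucleus accumbens, which belongs to the ventral striatum and serves reward learning. The events are entries of the splicing and transcript-end lists deposited for each library. An event was called antisense when its strand was opposite to the annotated strand of the gene it was listed under, on the same chromosome. The lists of the 6 libraries together held 132823 different events, of which 4501 were antisense, 127390 were on the strand of their gene (sense events) and 932 belonged to identifiers that GENCODE M21 did not place on that chromosome. The antisense events were listed under 1733 of 16154 genes, and 98.6% of them under protein-coding genes.

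The tissue came from adult male C57BL/6N mice, a wild-type inbred strain, trained in conditioned place preference (CPP), in which an animal learns to link a compartment with an injection. There were 3 libraries from mice that received morphine (morphine 1 to 3) and 3 from mice that received saline (saline 1 to 3), with no genetic change in either group. The series description gives more mice than samples for each group while the figure text of the study shows single animals, so whether tissue was pooled is not known here, and p-values measure only the spread between these libraries. The kit used was directional, so it kept the strand of the RNA.

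Antisense transcripts are RNAs made from the DNA strand opposite to a gene. They include long non-coding RNAs (lncRNAs) that start near the promoter of a coding gene and run away from it or through it, and transcripts of imprinted loci, where the strand that is transcribed depends on the parent of origin. Several well-known brain lncRNAs, such as Snhg14 opposite Ube3a, Dlx6os1 opposite Dlx6 and Airn opposite Igf2r, are of this kind. An event listed under a gene but lying on the other strand can therefore trace a neighbour of that gene, and each event was compared with the genes annotated on its own strand.

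Exons of loci described below are shown to give these transcripts a sequence. They are a selection of repeated events, and some others are not printed because the transcript sequence used here did not cover them. All are read 5′ to 3′ on the event strand of GRCm38, from GENCODE M21 transcript sequence, and the capitals mark the last 3 exonic bases, at the donor splice site. The first 4 lie in the lncRNA Rian and were listed under Rtl1 as skipped in the 3 morphine libraries and in no saline library. The last of them is not at annotated exon boundaries, and the other 3 are.
Rian exon, chr12:109606214-109606343, plus strand: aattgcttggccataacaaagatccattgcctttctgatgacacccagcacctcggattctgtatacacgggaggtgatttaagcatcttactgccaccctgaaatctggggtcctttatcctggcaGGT
Rian exon, chr12:109607414-109607496, plus strand: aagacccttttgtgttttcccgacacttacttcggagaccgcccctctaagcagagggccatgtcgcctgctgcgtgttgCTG
Rian exon, chr12:109642565-109642652, plus strand: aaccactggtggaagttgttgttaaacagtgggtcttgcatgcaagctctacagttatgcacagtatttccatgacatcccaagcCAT
Exon within Rian, chr12:109644804-109644902, plus strand: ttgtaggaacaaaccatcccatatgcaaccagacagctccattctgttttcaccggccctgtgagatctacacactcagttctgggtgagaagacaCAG

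The next exons were listed in all 6 libraries. They belong to lncRNAs or transcribed pseudogenes opposite Traf3ip2, Sybu and Htr1b, or lie inside the coding sequence of Rtl1 and Ahnak, where no gene was annotated on the event strand.
E130307A14Rik exon under Traf3ip2, chr10:39632950-39633016, minus strand: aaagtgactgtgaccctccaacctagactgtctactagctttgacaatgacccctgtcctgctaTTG
E130307A14Rik exon under Traf3ip2, chr10:39681473-39681549, minus strand: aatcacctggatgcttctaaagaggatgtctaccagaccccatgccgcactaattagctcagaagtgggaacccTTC
A930017M01Rik exon under Sybu, chr15:44872185-44872279, plus strand: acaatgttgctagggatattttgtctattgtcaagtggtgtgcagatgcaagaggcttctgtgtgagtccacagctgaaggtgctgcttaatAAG
D430036J16Rik exon under Htr1b, chr9:81636835-81636937, plus strand: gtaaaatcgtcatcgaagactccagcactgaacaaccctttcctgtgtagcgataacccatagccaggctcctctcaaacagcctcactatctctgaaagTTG
First exon of the transcript start inside Rtl1, chr12:109593585-109593700, plus strand: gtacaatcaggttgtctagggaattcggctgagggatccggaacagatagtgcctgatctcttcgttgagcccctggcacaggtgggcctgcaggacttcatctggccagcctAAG
First exon of the transcript start inside Ahnak, chr19:9014635-9014783, minus strand: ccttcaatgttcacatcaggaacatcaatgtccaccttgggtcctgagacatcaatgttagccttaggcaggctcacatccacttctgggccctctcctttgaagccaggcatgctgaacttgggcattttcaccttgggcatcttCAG

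Antisense events were a small part of every list, and their number followed the depth of the library. There were 847, 917 and 1239 of them in saline 1, 2 and 3, and 1039, 1342 and 1088 in morphine 1, 2 and 3. They made up 1.46%, 1.68% and 2.17% of the events in the saline libraries and 1.67%, 2.22% and 1.91% in the morphine libraries. The ranges of the groups overlapped. Saline libraries had 1001 ± 209.1 events on average and morphine libraries 1156 ± 162.6 (SD, n = 3), which did not pass the test (p = 0.4 by a two-sided exact permutation test, and 0.6 after Benjamini-Hochberg adjustment over 8 comparisons, where 0.1 was the smallest p possible). The share of all events (1.77% ± 0.365 against 1.93% ± 0.275, exact permutation p = 0.6, n = 3) and the number of genes with an antisense event (491.7 ± 114.0 against 554.3 ± 80.1, exact permutation p = 0.4, n = 3) did not pass the test either. In bulk tissue, fewer cells of a type and less RNA per cell cannot be told apart.

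Total read numbers were not analysed here, but the ratio of count to FPKM in the deposited lncRNA table gave the depth of each library relative to saline 1. It was 1, 1.07 and 1.37 in saline 1, 2 and 3 and 1.20, 1.59 and 1.29 in morphine 1, 2 and 3. Over the 6 libraries, antisense events and relative depth were ordered alike (Spearman's rho = 1.0, exact permutation p = 0.00278; Pearson's r = 0.984, exact permutation p = 0.00278, both 0.00833 after adjustment over 3 relations). Without saline 1 and morphine 2, the libraries farthest from the median depth, r was 0.975. The antisense share of all events also followed depth (r = 0.936, exact permutation p = 0.00556; rho = 0.943, exact permutation p = 0.0167; adjusted p = 0.00833 and 0.025), with r = 0.888 without these libraries. The number of antisense events did not follow the number of sense retained introns, which ranged from 5337 to 9404 (r = -0.18, exact permutation p = 0.739, adjusted p = 0.739; rho = -0.314, exact permutation p = 0.564, adjusted p = 0.564). With 3 libraries a group, the relation to depth was not tested within groups, but the depth and the number of events had the same order in each of them.

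**Figure D1:**
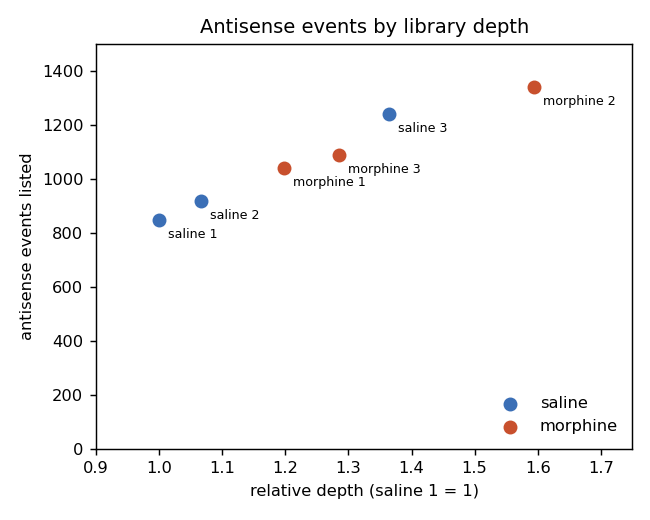
Number of antisense events listed in each library (vertical axis) against relative depth with saline 1 set to 1 (horizontal axis), one point per library, blue for saline and orange for morphine. The points run from 847 events at a depth of 1 to 1342 at 1.59, and the order of the libraries is the same on both axes.

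Antisense events were mostly starts and ends of transcripts. Over the 6 libraries together, 1702 were transcript starts, 2130 transcript ends, 297 skipped exons, 149 retained introns and 223 alternative exon ends. Within a library, starts and ends together made up 84.6% ± 2.03 of antisense events and 67.3% ± 2.04 of sense events (SD, n = 6), higher in 6 of 6 libraries (exact paired permutation test, two-sided, p = 0.031, the smallest possible, and 0.0357 after adjustment over 8 comparisons). This difference lay in the ends, at 45.8% ± 2.06 against 29.1% ± 0.937 (exact paired permutation p = 0.031, adjusted p = 0.0357), since starts were 38.8% ± 2.06 against 38.2% ± 1.17 (exact paired permutation p = 0.656, higher in 3 of 6 libraries).

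Events inside transcripts were rarer on the antisense strand. Retained introns were 3.04% ± 1.0 of antisense and 12.1% ± 2.24 of sense events, and antisense values from 1.96% to 4.55% did not reach the sense range of 9.61% to 15.5%. Skipped exons were 7.35% ± 0.396 against 10.3% ± 0.528, and alternative exon ends 4.99% ± 0.87 against 10.3% ± 0.327. Each of these 3 shares was lower in 6 of 6 libraries (exact paired permutation p = 0.031, adjusted p = 0.0357). None of the 5 kinds of event passed the test between morphine and saline (exact permutation p from 0.2 to 0.6, adjusted p = 0.6). The smallest p possible was 0.1, so this does not show that the groups were alike. The mean number was higher in morphine for each kind, and the part of library depth in this was not tested. Rtl1, described below, alone held 39 of the 149 retained introns and 35 of the 223 alternative exon ends.

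**Figure D2:**
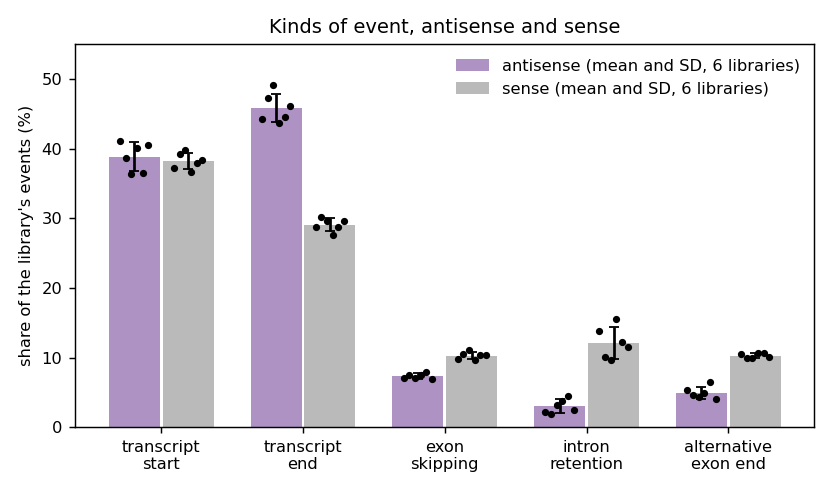
Share of each library's antisense events (purple) and sense events (grey) that fell into 5 kinds (vertical axis, percent), with bars for the mean, error bars for the SD and one point for each of the 6 libraries. Transcript ends stood at 45.8% of antisense and 29.1% of sense events, and retained introns at 3.04% against 12.1%.

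Most antisense events were seen once. Of the 4501, 3452 (76.7%) were listed in a single library and 62 (1.38%) in all 6, against 49.6% and 21.2% of sense events. Within a library, events shared by all 6 made up 4.62% to 7.32% of the antisense and 44.5% to 50.6% of the sense events. The count in all 6 libraries was 27 for starts, 23 for ends, 10 for skipped exons, 2 for alternative exon ends and 0 for retained introns. By gene, 1104 of the 1733 genes (63.7%) had antisense events in a single library and 75 (4.33%) in all 6. Most genes carried few of them, with a median of 2 events, 645 genes with a single event and 57 genes with 10 or more.

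The position of the events relative to the gene was mixed. Of the 4501 events, 1720 (38.2%) touched an exon of the assigned gene from the other strand, 1087 (24.2%) lay in its introns, 982 (21.8%) lay upstream of the gene and 712 (15.8%) downstream. The 1694 events outside the gene were at a median distance of 16.4 kb, and the farthest was 1367 kb away. The stretch from the first to the last antisense event of a gene overlapped the gene in 1604 of 1733 cases (92.6%). For 1527 of these genes (88.1%) sense events were listed too, and 206 genes had antisense events alone.

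Part of the antisense starts lay near a start of the gene, and no expected share was computed for comparison. Of the 1702 antisense transcript starts, 435 (25.6%) lay within 1 kb of an annotated transcript start of the assigned gene. Of these, 339 lay past that start, in the direction of the gene, and 96 lay before it. As a gene can have several annotated starts, just 2 of the 96 were outside the gene altogether. For 92.6% of genes the antisense stretch overlapped the gene it was listed under. The part of this listing in the split was not tested. The median distance was 8.69 kb over all antisense starts. Among the 27 antisense starts listed in all 6 libraries, 10 lay within 1 kb of a start of their gene. They included those in Dio2, the deiodinase that activates thyroid hormone, in Kcnk3, a potassium channel of resting neurons, and in Cd55, an inhibitor of complement. Among antisense ends, 551 of 2130 (25.9%) lay within 1 kb of an annotated transcript end of the gene.

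**Figure D3:**
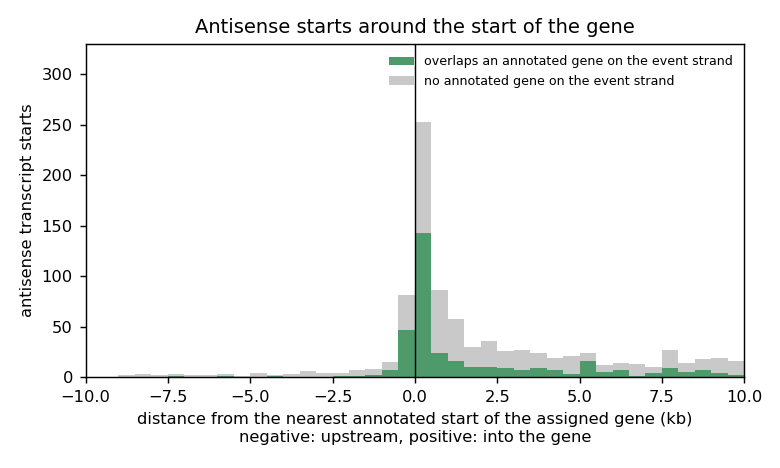
Distance of antisense transcript starts from the nearest annotated start of their assigned gene (horizontal axis, kb, negative upstream and positive into the gene, limited to 10 kb on either side) in bins of 0.5 kb. Bar height is the number of starts, green where a gene is annotated on the event strand and grey where none is. The tallest bin is the first one past the annotated start.

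Genes annotated on the event strand were found for 1904 of the antisense events (42.3%), and 1569 (34.9%) lay wholly inside such a gene. A lncRNA gene was overlapped by 1601 events (35.6%), a pseudogene but no lncRNA by 189 (4.20%), a protein-coding gene but no lncRNA by 106 (2.36%), and a small RNA gene alone by 8 (0.178%). The share differed by class, from 34.8% of ends and 37.9% of starts to 80.3% of single skipped exons and 98.3% of single retained introns (58 of 59). Retained introns were concentrated in few genes. Rian held 15 of the 59 single ones, and Rtl1, Cdr1 and Sfi1 had 39, 24 and 17 of all 149. The remaining 2597 antisense events (57.7%) met no annotated gene on their strand, and for 851 of these the nearest was within 10 kb.

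These neighbours were almost absent from the lists under their own names. Of 552 lncRNA genes overlapped by an antisense event, 3 had any event under their own identifier, whereas 49 of 57 overlapped protein-coding genes did. The lists held sense events almost entirely under protein-coding genes (99.6%). Just 11 antisense events were also listed, at the same coordinates and strand, under a gene of their own strand.

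Antisense events were also compared with annotated exon boundaries. An event was counted as annotated when both its ends, or for transcript starts and ends the spliced end of the exon, were exon boundaries on the event strand. Per library this held for 30.9% ± 1.02 of antisense and 92.9% ± 0.537 of sense events (SD, n = 6). This is given as a description, since a sense event lies on the strand of an annotated gene by definition, while the 57.7% of antisense events with no annotated gene on their strand cannot match. Over all libraries together it held for 67.8% of single retained introns and 46.5% of single skipped exons, but for 23.4% of starts and 21.4% of ends. Among events that overlapped a lncRNA gene, 63.8% were at annotated boundaries. The reverse case, in which the coordinates fit exon boundaries of the opposite strand, occurred for 10 of the 4501 events and for 4 of the 669 events inside transcripts.

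The intron bases beside the events could be read where an annotated exon covers them, since the reference used here was transcript sequence. This was so for 2019 of 4724 antisense splice sides (42.7%) and for 25.25% of sense splice sides. The usual GT at a donor or AG at an acceptor was present on the event strand in 91.9% ± 1.36 of readable antisense sides and 97.8% ± 0.152 of sense sides per library (SD, n = 6), lower in 6 of 6 libraries (exact paired permutation p = 0.031, adjusted p = 0.0357). At antisense boundaries that were not annotated, GT was found at 620 of 712 donors (87.1%) and AG at 822 of 911 acceptors (90.2%). At sense boundaries that were not annotated the shares were 82.2% of donors and 87.5% of acceptors, and at annotated boundaries AG stood at 160 of 160 antisense acceptors and 99.8% of sense acceptors. The overall antisense share was thus lower than the sense share, while at boundaries that were not annotated it was higher for donors and for acceptors, a difference that was not tested. A further 58 of the antisense donors that were not annotated had GC. The motif that an intron of the opposite strand would leave was found at 2 of the 712 donors (0.281%) and 55 of the 911 acceptors (6.04%), against 7.56% and 7.90% at sense boundaries that were not annotated. Aligners use these motifs to place spliced reads and to give them a strand, so the motif and the strand call are not independent measures.

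The gene with the most antisense events was Rtl1 (ENSMUSG00000085925, chromosome 12, 109589193 to 109600330, minus strand), an imprinted gene derived from a retrotransposon and expressed from the paternal chromosome. It had 91 antisense events and no sense event. On the maternal chromosome the plus strand of this region gives a series of non-coding RNAs, Meg3, the transcript opposite Rtl1, Rian and Mirg, which host microRNAs and small nucleolar RNAs (snoRNAs). Of the 91 events, 85 overlapped Rian (ENSMUSG00000097451, chromosome 12, 109603940 to 109661716, plus strand), whose start lies 3.61 kb from that of Rtl1. At 62 of these 85 the coordinates were annotated exon boundaries.

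Rtl1 events were unevenly spread over the libraries. There were 3, 2 and 4 in saline 1, 2 and 3, and 49, 65 and 23 in morphine 1, 2 and 3. Rian had no event under its own identifier, so its events were seen only where they were listed under Rtl1. The part of this listing in the counts was not tested, and low counts do not show that Rian RNA was absent. Within Rian alone there were 1, 0 and 3 in the saline and 47, 60 and 20 in the morphine libraries. Every morphine library was above every saline library. The relative depths were 1, 1.07 and 1.37 in the saline and 1.20, 1.59 and 1.29 in the morphine libraries, and the part of depth in these counts was not tested. Across the 1733 genes with antisense events, such a separation with morphine higher occurred in 15 (0.866%) and with saline higher in 9 (0.519%), and 19 of these 24 genes had 5 events or fewer. Of the 85 Rian events, 82 were listed in morphine libraries only, 3 also in a saline library and 0 in saline libraries only. Among the morphine libraries, 52 were in a single library, 24 in a pair of them and 9 in all 3, so that the exact events differed between libraries even where the gene was the same.

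The Rian events were mainly inside transcripts. They comprised 22 alternative exon ends and 13 more with variable ends, 15 single retained introns and 8 with variable ends, 8 and 6 of the kinds with several retained introns, 7 single skipped exons and 4 with variable ends, 1 with several skipped exons, and 1 transcript end. No other gene carried events on the plus strand within Rian, and Meg3 was in no list. Rian holds 13 annotated snoRNA genes, and 29 of the events ran over 5 of them, with 0 in each saline library and 16, 17 and 8 in morphine 1, 2 and 3. The 4 microRNA genes annotated inside Rian were each overlapped by 3 or 4 events, and for all 4 (Mir341, Mir1188, Mir370 and Gm23912) these came from morphine 2 alone.

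A single antisense event of Rtl1 was shared by all 6 libraries. This was a transcript start whose first exon, 116 bases long and shown above, lay in the Rtl1 coding sequence, 6745 bases past the Rtl1 start, on the plus strand. It lies upstream of the hairpins of Mir434 (109594506 to 109594599) and Mir136 (109595327 to 109595388), which are on the same strand opposite Rtl1. MicroRNAs of this strand are known for pairing with the Rtl1 transcript over their full length. A mature microRNA of each of these hairpins, and one of each of Mir341 and Mir370 in Rian, is given from RefSeq (GRCm38.p6), with the seed, bases 2 to 8, in capitals, and no seed is shared among them.
mmu-miR-434-3p: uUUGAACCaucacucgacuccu
mmu-miR-136-5p: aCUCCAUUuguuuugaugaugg
mmu-miR-341-3p: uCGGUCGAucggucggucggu
mmu-miR-370-3p: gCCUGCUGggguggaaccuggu

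**Figure D4:**
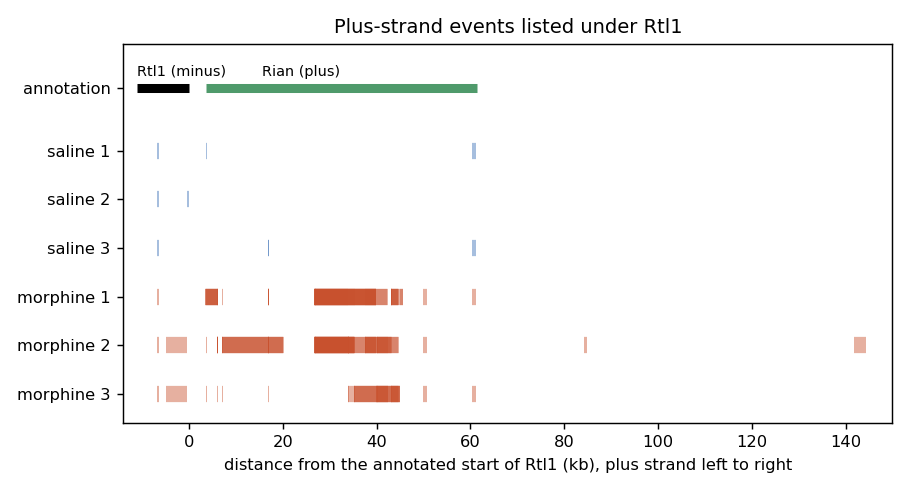
Plus-strand events listed under Rtl1 in each library, drawn along the distance from the annotated Rtl1 start (horizontal axis, kb), with one line per library, blue for saline and orange for morphine, and the annotated extent of Rtl1 and Rian above. Darker colour marks overlapping events; very short events are drawn wider than they are. The saline libraries hold 3, 2 and 4 events and the morphine libraries 49, 65 and 23, most of them between the ends of Rian.

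Other imprinted loci showed antisense events without such a separation. Ube3a, a ubiquitin ligase that neurons express from the maternal copy, had 27 antisense events, of which 20 overlapped Snhg14, the long transcript of the opposite strand. They numbered 1, 5 and 8 in saline 1, 2 and 3 and 16, 5 and 4 in morphine 1, 2 and 3, so the groups overlapped and morphine 1 was highest. Just 3 of the 27 were at annotated boundaries, and 10 were skipped exons. Igf2r, a receptor that clears insulin-like growth factor 2, had 3 antisense events, all in Airn, with 2, 3 and 2 in the saline and 2, 0 and 0 in the morphine libraries. Airn was also overlapped by 1 event listed under Mas1, in morphine 3. Kcnq1, a potassium channel, had 6, of which 5 overlapped Kcnq1ot1, with 1, 0 and 2 in the saline and 2, 2 and 3 in the morphine libraries.

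Transcription factors of forebrain development were a further set with known antisense partners. Dlx6, a homeobox factor of striatal and interneuron precursors, had 16 antisense events, of which 15 overlapped Dlx6os1. The counts were 6, 5 and 5 in saline 1, 2 and 3 and 6, 2 and 4 in morphine 1, 2 and 3. No sense event was listed for Dlx6, and its antisense start (chromosome 6, 6871489 to 6871646, minus strand) was in all 6 libraries. Six3, a homeobox factor of the ventral forebrain, had 13 antisense events, all in Six3os1 and 12 of them at annotated boundaries, with 6, 0 and 3 in the saline and 2, 3 and 8 in the morphine libraries. Zeb2 had 3, with 2 in each saline library and 0, 3 and 2 in the morphine libraries. None of these 3 genes separated the groups.

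Sox2, a factor of neural stem cells and glia with a single annotated exon, had 2 antisense events. Both were on the minus strand inside the gene on chromosome 3, a start at 34651526 to 34651642 and an end at 34651359 to 34651492, and both were listed in each morphine library and in no saline library. Morphine was higher without overlap in 15 of 1733 genes with antisense events (0.866%), and Sox2 had just these 2 events. The end exon and the start exon were 33 bases apart, and whether this gap is a true intron was not tested. No annotated gene overlapped these events on their strand, and Sox2ot, which surrounds Sox2 on its own strand, had no listed event.

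Of the 42 genes of known sense and antisense pairs that were looked up, 10 had antisense events and 8 were overlapped by antisense events of another gene. Just 22 of the 42 were listed under their own identifier, and 10.7% of all listed genes had antisense events. The pairs were looked up because antisense transcripts are known for them. The other 24 had neither, among them Bdnf, Bace1, Mapt, Uchl1, Emx2 and Otx2, for which antisense partners are known. An RNA that is not listed may still have been present.

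Cdr1 (ENSMUSG00000090546, chromosome X, minus strand) had 56 antisense events and is known for the circular RNA made from its opposite strand, which binds miR-7. None of the events lay within the 1554 bases of Cdr1. Instead 55 overlapped C230004F18Rik, a lncRNA gene of 176.1 kb on the plus strand that contains Cdr1, and 33 of the 56 were at annotated boundaries. There were 4, 19 and 31 in saline 1, 2 and 3 and 2, 7 and 18 in morphine 1, 2 and 3. Both groups had a low library and the ranges overlapped. The events comprised 24 retained introns, 16 alternative exon ends and 12 skipped exons, and 41 were in a single library. A transcript end in the lncRNA gene, outside Cdr1, was in all 6.

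Other genes had antisense events in every library, with overlapping groups. Traf3ip2, an adaptor of interleukin-17 signalling, had 40 antisense events, all in E130307A14Rik and 36 of them at annotated boundaries, with 8, 21 and 19 in the saline and 14, 16 and 16 in the morphine libraries. In this locus 25 of the 40 were skipped exons, and 3 events were in all 6 libraries. Sybu, which links vesicles to kinesin motors for transport along axons, had 20 events, all in A930017M01Rik, with 8, 8 and 7 in saline and 6, 13 and 7 in morphine, and 4 in all 6 libraries. Inhba, the activin beta A subunit, had 29, of which 22 were in B230303A05Rik, with 8, 11 and 10 in saline and 3, 11 and 11 in morphine.

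For some leading genes the assignment is uncertain, since repeated sequence or similar copies may be involved, and the part of this in their counts was not tested. Among the genes of this paragraph, repeated sequence was measured for Ahnak alone. Ahnak, a giant scaffold protein built of tandem repeats, had 36 antisense events, all inside its longest exon of 17498 bases and none with an annotated gene on the event strand. There were 10, 12 and 14 in saline 1, 2 and 3 and 14, 16 and 10 in morphine 1, 2 and 3. In that exon 34.6% of all 20-base words occur more than once, against a median of 0.267% over the 1779 annotated exons of 5000 bases or more. On chromosome 9, between 3000003 and 3038213, 8 predicted genes carried 77 antisense events, with 35, 16 and 32 in the saline and 28, 15 and 9 in the morphine libraries, and 75 events overlapped the lncRNA gene Gm26870, none of them at annotated boundaries. Gm47283, on chromosome Y, had 29 antisense events, of which 23 were in saline 1, 2 in saline 2, 0 in saline 3, and 5, 2 and 0 in the morphine libraries.

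The remaining leaders were of mixed kinds. Sfi1, a centrosome protein, had 36 events, of which 33 were over the pseudogene Pisd-ps1, with 10, 10 and 2 in saline and 13, 20 and 10 in morphine. Eps8l3 had 23, with 19, 0 and 2 in saline and 0, 14 and 0 in morphine, and 21 of them were in 4933431E20Rik. Some events of that neighbour were listed under Gstm5. Under both genes it had 19, 0 and 0 in saline and 10, 14 and 0 in morphine. Gm1604a had 27, all outside the gene, 24 of them in AC164314.1, with 8, 6 and 8 in saline and 6, 13 and 5 in morphine. For none of these 3 did the groups separate.

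**Figure D5:**
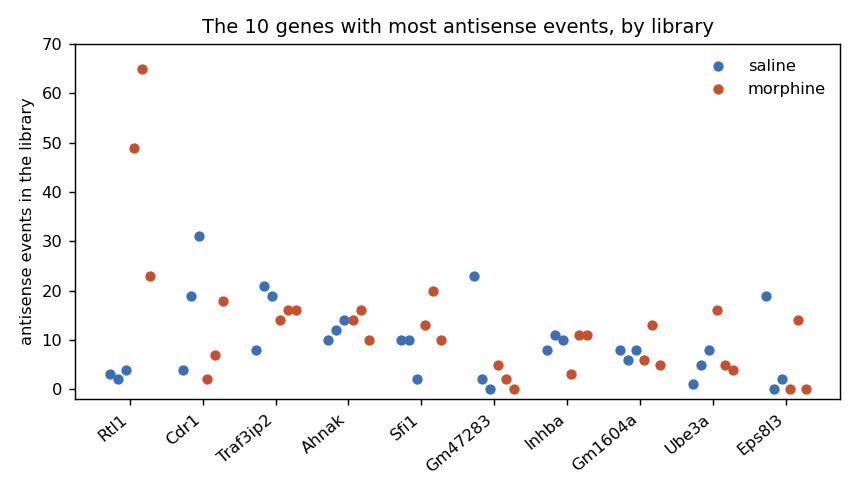
Number of antisense events in each library (vertical axis) for the 10 genes with most of them (horizontal axis), one point per library, blue for saline and orange for morphine. Rtl1 is the one gene of the 10 whose morphine points (49, 65 and 23) all lie above its saline points (3, 2 and 4).

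The 62 events found in all 6 libraries belonged to 41 genes. Of these events, 39 overlapped an annotated gene on their strand, 32 were at annotated boundaries, and 23 met no annotated gene. Ermard, a protein of the endoplasmic reticulum membrane needed for neuronal migration, had the most, with 5, all on the minus strand between 14988388 and 14992872 of chromosome 17, upstream of the gene and outside annotated genes of that strand. Its 23 antisense events numbered 6, 7 and 16 in saline and 7, 16 and 12 in morphine, and 10 of them overlapped Gm3448, a coding gene.

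Tep1, a telomerase-associated protein, and Fam214b had 3 such events each, in Gm26782 and Gm26881. The pairs of events in all 6 libraries at Dio2, Cyp20a1, Abhd18, Dbx2 and Cd163 gave a start and an end each, except at Abhd18, which gave a pair of ends. Cd163, a scavenger receptor of perivascular macrophages, had 2, 2 and 2 antisense events in saline and 3, 3 and 4 in morphine, which did not overlap. Such a separation with morphine higher occurred in 15 of 1733 genes (0.866%), and Cd163 had just 5 antisense events. Dbx2, a homeobox factor, had 3, 2 and 3 in saline and 2, 3 and 3 in morphine. Htr1b, a serotonin receptor on the terminals of striatal projection neurons, had 13 antisense events, 11 in D430036J16Rik and all of these 11 at annotated boundaries. Its counts were 5, 3 and 10 in saline and 4, 5 and 1 in morphine. Htr1b was named after its values were seen.

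Events were called group-specific when every one of the 3 libraries of a group listed them and the other group had none. This held for 27 antisense events (0.60%), against 874 of all 132823 events (0.658%). By direction it held for 17 antisense events in morphine (0.378%), where the share of all events was 0.381%, and for 10 in saline (0.222%), where it was 0.277%. Antisense events were thus group-specific at about the share of all events. The number was larger, at 48 to 99, when a library was left out, and 99 without morphine 3. Fewer libraries had to agree there, and the matching share of all events is not given here.

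The morphine-specific antisense events came from 8 genes, and 9 of the 17 lay in Rian under Rtl1. These 9 were 5 skipped exons, 2 retained introns (109643461 to 109644804 and 109650157 to 109651013) and 2 alternative exon ends, and 1 of the retained introns and 1 of the exon ends ran over the snoRNA gene Gm23600. The first of these introns, both exon ends and 1 skipped exon shared boundaries between 109643414 and 109644902. They are therefore not independent events. Without Rtl1, 18 group-specific antisense events remained. Sox2 gave 2, and Raet1e, Shroom1, Ermard, Selplg, Dusp16 and Sult2b1 gave 1 each. In Ermard it was a skipped exon at 14988388 to 14988591. All 6 libraries listed this interval as an alternative exon end, and a shorter form (14988481 to 14988591) as skipped. Selplg, a selectin ligand that microglia express, had 1 antisense event in each saline library and 4, 5 and 3 in morphine 1, 2 and 3. Every morphine library was above every saline library in 15 of 1733 genes with antisense events (0.866%). The 6 genes with 1 morphine-specific event, and those with 1 saline-specific event, were named after their values were seen.

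The saline-specific antisense events came from 9 genes, and 4 of the 10 lay in the block of predicted genes on chromosome 9, 2 of them under Gm10722. In Igf2r it was an annotated transcript end of Airn (chromosome 17, 12859541 to 12860201, plus strand). Under Igf2r it was listed in each saline library and in no morphine library. Airn also had 1 event listed under Mas1, in morphine 3. The others were starts in 2010300C02Rik, Gna13, Tspan32 and Trappc5 and an end upstream of Dmac2. Gna13 is a G protein subunit that acts on the RhoA pathway, and Tspan32 is a tetraspanin of blood cells, where the event was the start of Tspan32os.

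All 30 cell type markers that were looked up, of striatal projection neurons, interneurons, astrocytes, oligodendrocytes, microglia, ependymal cells and cortical neurons, were listed in all 6 libraries, so listing did not tell these cell types apart. Antisense events were listed for 8 of the 30, where 10.7% of all listed genes had them. Chat, the enzyme that makes acetylcholine, had 4, with 3, 2 and 1 in the saline and 1, 3 and 0 in the morphine libraries. Penk, the precursor of enkephalin, had 3, all in morphine 3, and Tac1, the precursor of substance P, had 1, in morphine 2. The opioid receptor genes Oprm1, Oprd1 and Oprk1 had none in any library.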

How the data were processed

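Strand-specific RNA-seq libraries of the NAc (3 morphine, 3 saline) were aligned with HISAT2 and assembled with StringTie by the authors. The genome build is not given in the sources used here. GENCODE M21 on GRCm38 was used for positions. The deposited table of differential lncRNA transcripts holds raw read counts and FPKM values from the authors, and served only for relative depth, from the count divided by FPKM, fitted on a log scale with counts as weights, over 91 values with at least 10 counts. Its columns of fold changes and significance, which are the authors' own comparisons, were not used. The event lists, in ASprofile layout, are deposited per library with a column named FPKM that holds no levels and was not used.

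Entries of the OFF types were left out. Events with the same class, gene, chromosome and strand were taken as 1 event where they shared the spliced end of the exon (starts, ends) or both coordinates (others). Samples were grouped by the treatment label, and replicate numbers are names only. Morphine and saline were compared with exact permutation tests (two-sided), and antisense with sense events by exact sign-flip tests over libraries, with Benjamini-Hochberg adjustment. The comparison of kinds of event other than retained introns was added after seeing the data. Splice dinucleotides were planned on genome sequence and were read from transcript sequence instead, whose overlapping parts did not differ at any of 112143189 bases compared.

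Named genes were the 10 with most antisense events, the 10 with most events in all 6 libraries, those with at least 2 group-specific events, the 10 most overlapped neighbours, and a list of known pairs. Ties were broken by gene symbol, which left out 3 genes (Fbxw15, Zfp955b and Zfp990) with as many events in all 6 libraries as the last ones named. The members and lists were chosen with earlier results of these data known. Strand calling, boundary matching, the group-specific call and the paired test recovered all planted answers on simulated data. The planted strands and exons came from the same annotation, so this checks the code alone. The test between groups, the correlations and the adjustment were not simulated. The software was scipy 1.17.1, pandas 2.3.3, numpy 2.4.6, matplotlib 3.10.9 and Python 3.11.15.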

Additional observations from a re-analysis of the deposited data

How the results depend on the processing

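The difference between morphine and saline in antisense events, in their share and in their genes kept its direction and did not pass the exact permutation test under any alternative run. It was 62.5 to 274.3 events, 0.0107 to 0.368 percentage points and 12.8 to 124.8 genes when a library was left out. The lower shares of retained introns (-8.56 to -9.60 percentage points) and canonical dinucleotides (-5.51 to -6.23) kept their sign without any library, where 5 libraries allow no p under 0.05, and passed the test under all other alternatives run. The difference at annotated boundaries, a description, was -61.7 to -62.4 without a library. The share of a library's events listed in all 6 libraries (antisense minus sense, -41.8 percentage points) was -35.8 with all coordinates as identity and -41.4 to -42.4 without a library. The number of group-specific antisense events, 27, was 13 with all coordinates as identity and 10 without annotated genes on the event strand. It was 266 with 2 libraries of a group enough, and 48 to 99 without a library, where fewer libraries had to agree. The share of all events under these other settings is not given here, so these numbers cannot be set against it. The share overlapping an annotated gene, 42.3%, was 34.9% for events wholly inside the gene, 45.8% with all coordinates as identity, and 42.6% to 43.7% without a library. The weak relation to sense retained introns (r = -0.18) was 0.0837 without the 2 libraries farthest from the median. Leaving out scaffold sequences changed no call. No paired analysis was possible because the labels give the groups no shared replicate numbers. The lists give no read support for an event, so depth limits what an unlisted event can show.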
